A study of Homo sapiens with 8 samples.

Results

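The 4 input libraries of an aldehyde-reactive probe experiment were compared between wild-type (WT) cells and ALKBH1 knockout (KO) cells, to see which RNA fragments made up the material before any pulldown. They were 4 of the 8 libraries of the series, chosen by their labels as WT input replicates 1 and 2 and KO input replicates 1 and 2. The labels give the cells as HEK-293, a human embryonic kidney line, and the study's methods give them as its derivative HEK293T. Knockout lines were made with CRISPR/Cas9 and grown from single sorted cells, and the sources used here do not say which of 2 such lines gave these libraries. Total RNA of both genotypes was fragmented to about 150 nt, received the same spike-in oligonucleotide carrying 5-formylcytidine and was incubated with the aldehyde-reactive probe, which attaches biotin to aldehydes. An input was 200 ng of this RNA taken before the streptavidin step, so every library here carried the probe treatment and none had been enriched. Peaks of the 4 libraries that overlapped on 1 strand were merged, which joined 2991 of the 4746 peaks of the series into 1177 regions. Genotype cannot be told apart from anything else in which the KO cells used differ from the WT cells.

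ALKBH1 is an iron- and oxoglutarate-dependent dioxygenase found in mitochondria and elsewhere in the cell. It oxidizes 5-methylcytidine to 5-formylcytidine at the wobble base of the mitochondrial methionine tRNA (gene MT-TM) and acts on the wobble base of cytosolic tRNA-Leu-CAA. Counts of an input library depend on how abundant and how recoverable each RNA was, and on where its cDNAs ended. The study reads its crosslinking sites from reverse transcription stops, and these libraries went through the same pipeline. Peak positions and covered lengths are therefore taken here as spans of cDNA ends, not as the extent of RNA fragments. In total RNA, rRNA and tRNA dominate, and small nucleolar RNAs (snoRNAs) guide the modification of rRNA. Reads at nuclear tRNA gene loci that do not match mature tRNA can come from precursors with a leader, trailer or intron.

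The sequences of the regions on which the comparison turned are given first, read 5′ to 3′ from the GRCh38 genome. The first set holds small RNAs and mitochondrial tRNAs that were higher or lower in the KO inputs, with the merged peak region in capitals. SNORD80 lay at chr1:173864846-173864917 (minus strand) and RNY5 at chr7:148941476-148941563 (plus strand), each shown with 10 nt on both sides. The regions marked in SNORD45A (chr1:75787886-75787972, plus strand) and MT-TK (chrM:8295-8364, plus strand) had peaks in the KO inputs alone. MT-TG (chrM:9989-10058, plus strand) was higher and MT-TF (chrM:575-647, plus strand) was lower in the KO inputs.
SNORD80: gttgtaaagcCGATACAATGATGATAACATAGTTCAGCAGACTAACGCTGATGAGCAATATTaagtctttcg
SNORD45A: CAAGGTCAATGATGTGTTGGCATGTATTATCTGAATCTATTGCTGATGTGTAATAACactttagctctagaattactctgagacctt
RNY5: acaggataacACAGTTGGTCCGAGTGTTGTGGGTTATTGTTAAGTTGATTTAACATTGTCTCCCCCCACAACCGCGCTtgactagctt
MT-TG: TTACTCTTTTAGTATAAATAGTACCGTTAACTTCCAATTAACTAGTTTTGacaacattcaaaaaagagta
MT-TK: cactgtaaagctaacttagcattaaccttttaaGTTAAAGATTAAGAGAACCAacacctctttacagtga
MT-TF: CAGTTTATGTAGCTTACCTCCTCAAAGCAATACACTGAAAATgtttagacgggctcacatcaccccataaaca

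The second set holds 3 nuclear tRNA gene loci, with the annotated tRNA gene in capitals and bases outside it in lower case. TRY-GTA5-4 (chr14:20663192-20663293, minus strand) is an intron-bearing tyrosine tRNA gene, and its region reached into the leader. TRF-GAA3-1 (chr6:28807833-28807912, minus strand) is a phenylalanine tRNA gene whose region also reached into the leader. TRR-TCG1-1 (chr15:89335073-89335145, plus strand) is an arginine tRNA gene, and its region covered bases 19 to 43 of the gene.
TRY-GTA5-4: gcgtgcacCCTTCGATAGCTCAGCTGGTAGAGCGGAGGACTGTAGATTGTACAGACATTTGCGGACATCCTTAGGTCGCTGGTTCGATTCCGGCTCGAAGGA
TRF-GAA3-1: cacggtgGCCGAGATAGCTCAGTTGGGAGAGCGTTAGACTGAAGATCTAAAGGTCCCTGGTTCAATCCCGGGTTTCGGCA
TRR-TCG1-1: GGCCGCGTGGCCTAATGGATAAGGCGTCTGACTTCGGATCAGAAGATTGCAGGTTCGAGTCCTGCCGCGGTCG

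The third set holds the 28S rRNA region with the largest change (chr21:8444893-8444939, plus strand) and the 18S rRNA region with the highest level among those listed in the KO inputs alone (chr21:8438153-8438195, plus strand), with the region in capitals. It also holds an intron site of NUTF2 (chr16:67863437-67863481, plus strand) whose capitals mark letters shared with a sequencing adaptor.
28S: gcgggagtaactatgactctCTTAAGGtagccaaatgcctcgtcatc
18S: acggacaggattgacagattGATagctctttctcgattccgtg
NUTF2 intron: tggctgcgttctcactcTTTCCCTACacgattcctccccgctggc

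A peak carried its count of unique cDNA molecules, and none under 10 was listed. These counts summed to 94218 (608 peaks) for WT input 1, 98032 (592 peaks) for WT input 2, 194494 (744 peaks) for KO input 1 and 285539 (1047 peaks) for KO input 2. Levels are given as CPM, the count scaled to a library sum of 1000000, in that order of libraries. The list minimum was worth 106, 102, 51.4 and 35.02 CPM, so low regions were more easily listed in the KO inputs, and a region without a peak was not taken as absent. Of the 709 regions of the WT inputs, 473 had a peak in both replicates, and of the 1072 regions of the KO inputs, 698 did. Replicates differed by more than sampling noise (chi-square per degree of freedom 6.49 in WT and 5.43 in KO). No library had a peak in ALKBH1, so the counts did not check the genotype labels. No peak lay in the other listed enzymes of cytosine methylation or oxidation, in the 4 marker genes of HEK-293 (LIN28B, IGF2BP1, PAX2, VIM) or in the 5 of other cell types (HBB, HBA1, ALB, PTPRC, COL1A1), so these lists did not check the cells.

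The first comparison asked how the RNA classes shared the counts. Mature cytosolic tRNA, the adaptor of translation, held 33.3% (Wilson 95% interval 33.0 to 33.6) and 35.4% (35.1 to 35.7) of the WT inputs and 27.9% (27.7 to 28.1) and 27.1% (26.97 to 27.3) of the KO inputs. Both KO libraries lay below both WT libraries. Nuclear tRNA gene loci held 6.10% and 4.44% of the WT inputs and 3.34% and 3.05% of the KO inputs, again without overlap. C/D box snoRNAs (SNORD), which guide ribose methylation, went the other way, from 1.31% and 1.45% in WT to 2.94% and 3.28% in KO. H/ACA box snoRNAs (SNORA), which guide pseudouridylation, had 0.131% and 0.131% in WT and 0.413% and 0.556% in KO. Both snoRNA shares include regions listed in the KO inputs alone, where the list minimum was worth fewer CPM. Listed were 48, 51, 98 and 107 SNORD regions and 8, 9, 35 and 49 SNORA regions. Mitochondrial tRNA and rRNA together held 7.28%, 7.78%, 11.1% and 11.9%, so both KO libraries were the higher ones. The intervals cover counting error only.

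Cytosolic rRNA held 41.7%, 41.4%, 46.6% and 43.8% of the counts, and its members did not move together. The share of 28S rRNA was 15.4% and 15.3% in WT and 20.8% and 19.8% in KO, while that of 5.8S rRNA was 10.8% and 9.93% in WT and 8.43% and 7.47% in KO. The 5S rRNA, made from its own genes, had 5.10%, 5.14%, 5.14% and 4.92%, and its groups overlapped. With 2 libraries per genotype the smallest two-sided p of an exact permutation test is 0.33, so no difference in shares could pass 0.05. The shares are parts of a whole, so a class can be lower because others are higher, and in bulk RNA fewer cells of a kind cannot be told apart from less RNA per cell. Counting only peaks of at least 106 CPM in each library, the same level for all, gave 33.3%, 35.4%, 28.3% and 27.7% for cytosolic tRNA and 3.80%, 4.15%, 6.20% and 7.04% for small noncoding RNA.

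**Figure D1:**
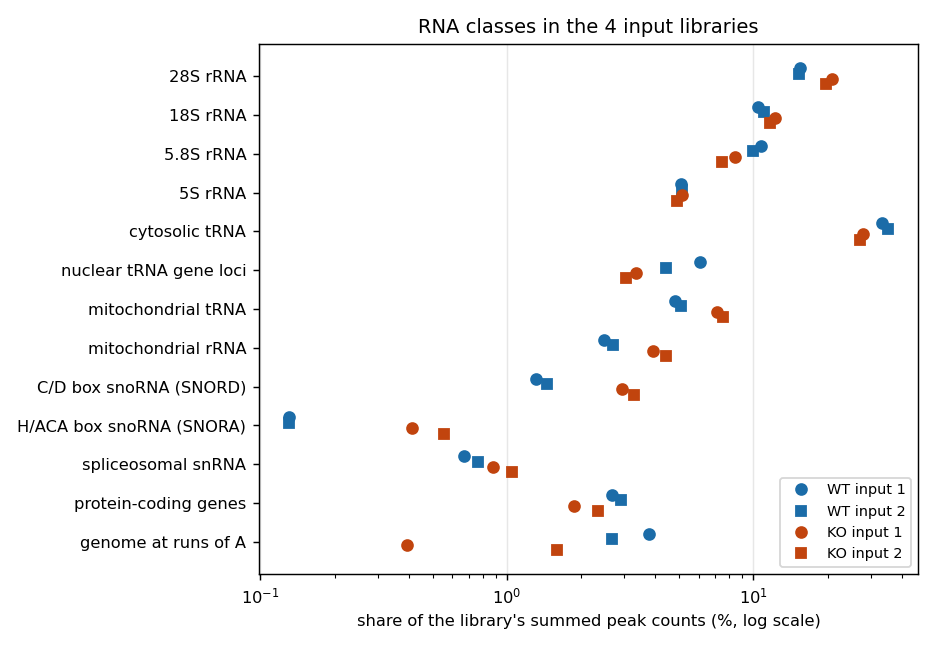
Share of each library's summed peak counts (percent, log axis) taken by 13 RNA classes, with WT inputs in blue, KO inputs in orange, replicate 1 as circles and replicate 2 as squares. The KO points lie right of the WT points for SNORD (2.94% and 3.28% against 1.31% and 1.45%) and left of them for cytosolic tRNA (27.9% and 27.1% against 33.3% and 35.4%).

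Regions with a peak in all 4 libraries were then tested one by one. A log2 ratio above 0 means higher in the KO inputs, the error given is a standard error, and a call is a Benjamini-Hochberg adjusted p under 0.05 from edgeR's quasi-likelihood test with 2 libraries per group. Of 409 regions, 157 were called (38.4%), 97 higher (23.7%) and 60 lower (14.7%) in the KO inputs, around a median log2 ratio of 0.09. The split depended on the scaling and the tool: with relative log expression (RLE) factors, which put the median at -0.04, it was 77 higher and 71 lower, and with DESeq2 it was 21 higher and 41 lower. In 316 of the 409 regions (77.3%) the CPM of the groups did not overlap. Leaving out WT input replicate 1, KO input replicate 1 or KO input replicate 2 left 0 edgeR calls, with 164, 153 and 152 regions at an unadjusted p under 0.05, and leaving out WT input replicate 2 left 90 calls. All 157 called regions kept their direction in each of these 4 fits, and 99 kept an unadjusted p under 0.05 in all 4. A count is a sum over peaks called in each library on its own, and in 95 of the 409 regions, 30 of them called, the mean covered length differed by more than 1.5 times between the genotypes. Of the 314 others, 76 were called higher and 51 lower.

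**Figure D2:**
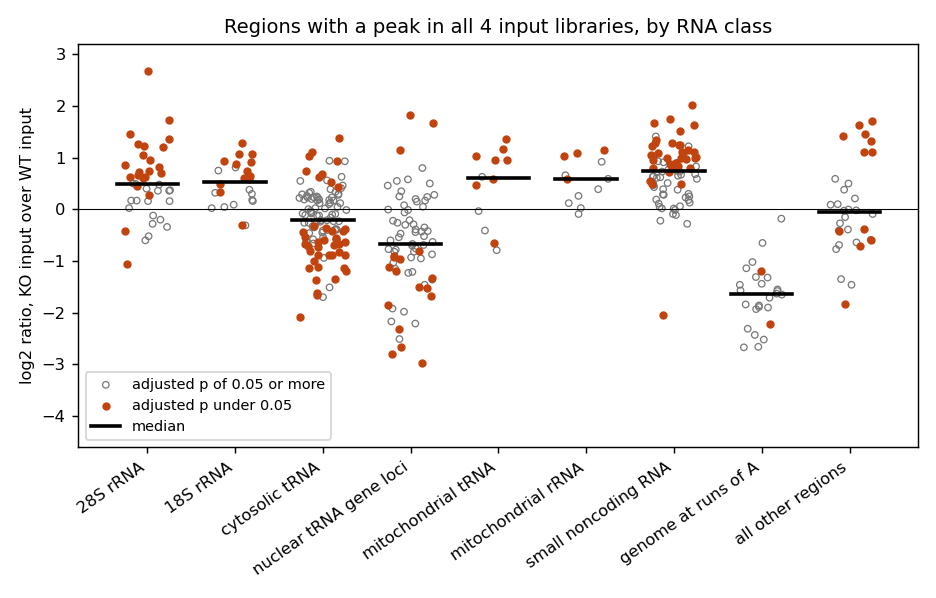
Log2 ratio of KO over WT input for the 409 tested regions by RNA class, where filled points have an adjusted p under 0.05 and black bars are medians. The medians are 0.74 in small noncoding RNA, 0.49 in 28S rRNA, -0.21 in cytosolic tRNA and -0.68 at nuclear tRNA gene loci.

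All 44 tested SNORD regions had a log2 ratio above 0 (43 with TMM factors, 42 with RLE factors or DESeq2), with a median of 0.90 against 0.09 over all regions, and 25 of them rose and none fell, beside 23.7% of all regions called higher. The groups did not overlap in 40 of the 44, beside 77.3% of all regions. SNORD80, encoded in an intron of the GAS5 host gene, had 149 and 204 CPM in the WT inputs and 555 and 637 CPM in the KO inputs. Both KO values were above both WT values, and the log2 ratio was 1.75 ± 0.24 (adjusted p = 0.0165, and 0.0695 with DESeq2). SNORD68 had the highest ratio of the list, with 127, 214, 648 and 732 CPM and a log2 ratio of 2.01 ± 0.30 (adjusted p = 0.0192). Its peak in KO input replicate 1 began at 89561315 on chromosome 16, upstream of 89561425 in both WT inputs and 89561424 in KO input replicate 2, so this peak covered more than the snoRNA. The SNORD80 peaks covered 33 nt in both WT inputs and 52 nt in both KO inputs. Of the 32 SNORD regions with like covered length in both genotypes, 16 rose and none fell. The count of calls depended on the tool: DESeq2 called 1 SNORD region higher, 3 with the summed counts as size factors, and 13 of the 25 kept an unadjusted p under 0.05 with each library left out in turn.

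Host genes with at least 3 tested SNORD regions were compared. The counts lie beside 25 of all 44 tested SNORD regions, and 23.7% of all regions, called higher. The 5 tested SNORD regions inside GAS5 had log2 ratios from 0.23 to 1.75, and 3 of them rose. All 4 in RPL7A, a ribosomal protein gene, lay between 0.75 and 1.67, and 3 rose. The 5 in SNHG1 lay between 0.11 and 0.99, and 4 rose, among them SNORD26 (446, 541, 931 and 1033 CPM) and SNORD27 (849, 786, 1141 and 1243 CPM), the latter not called with TMM factors (adjusted p = 0.0501). All 3 in NOP58 lay between 0.43 and 0.90, and 1 rose. SNORD31, in SNHG1, had 202, 194, 201 and 224 CPM, and its groups overlapped. Of 107 SNORD regions in all, 43 had a peak in both KO inputs and in neither WT input, and none had the reverse, beside 212 and 26 of all 1177 regions. Above 106 CPM, the highest list minimum, it was 24 SNORD regions, beside 100 and 26 of all regions. Of the 50 SNORA regions only 5 could be tested, with a median log2 ratio of 0.63 and no call by edgeR or DESeq2. Listed in both KO inputs alone were 24 SNORA regions, and 8 above 106 CPM. SCARNA4, a Cajal body RNA, rose by 1.23 ± 0.25 on the log2 scale (adjusted p = 0.0330).

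Among spliceosomal snRNAs, the RNA cores of the splicing machinery, 7 of 12 tested regions rose and none fell, beside 23.7% and 14.7% of all regions. Their median log2 ratio was 0.82, beside 0.90 in SNORD regions, and 10 of the 12 had a ratio above 0. RNU5A-1 rose from 361 and 347 CPM to 735 and 788 CPM (log2 ratio 1.11 ± 0.16, adjusted p = 0.0177), and RNU4-2 from 265 and 347 CPM to 571 and 648 CPM (0.99 ± 0.22, adjusted p = 0.0370). RNU5D-1, another U5 gene, had 3227, 3876, 2869 and 3222 CPM and was not called (-0.22 ± 0.13, adjusted p = 0.243). DESeq2 called none of the 12, while RLE factors left 4 higher. The U5 genes are near-identical copies, so reads can be split among them.

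RNY5, a Y RNA bound by the Ro60 protein, had 1762 and 2081 CPM in the WT inputs and 3949 and 4255 CPM in the KO inputs. It rose by 1.09 ± 0.12 on the log2 scale (adjusted p = 0.0153), and was also called by DESeq2. RN7SK, which holds the elongation factor P-TEFb inactive, had 945, 898, 1260 and 1341 CPM, a log2 ratio of 0.50 ± 0.11 (adjusted p = 0.0367, and 0.0646 with RLE factors). RN7SL1, the RNA of the signal recognition particle and the highest region of the class, had 4776, 5111, 5404 and 5842 CPM and was not called (0.19 ± 0.09, adjusted p = 0.156). The 1 region of the class that fell was annotated as a Y RNA copy on chromosome X (117914343 to 117914348, minus strand), with 234, 235, 51.4 and 59.5 CPM and a log2 ratio of -2.05 ± 0.22 (adjusted p = 0.0146, and 0.101 with DESeq2). Its KO values were at 10 and 17 counts, near the list minimum.

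**Figure D3:**
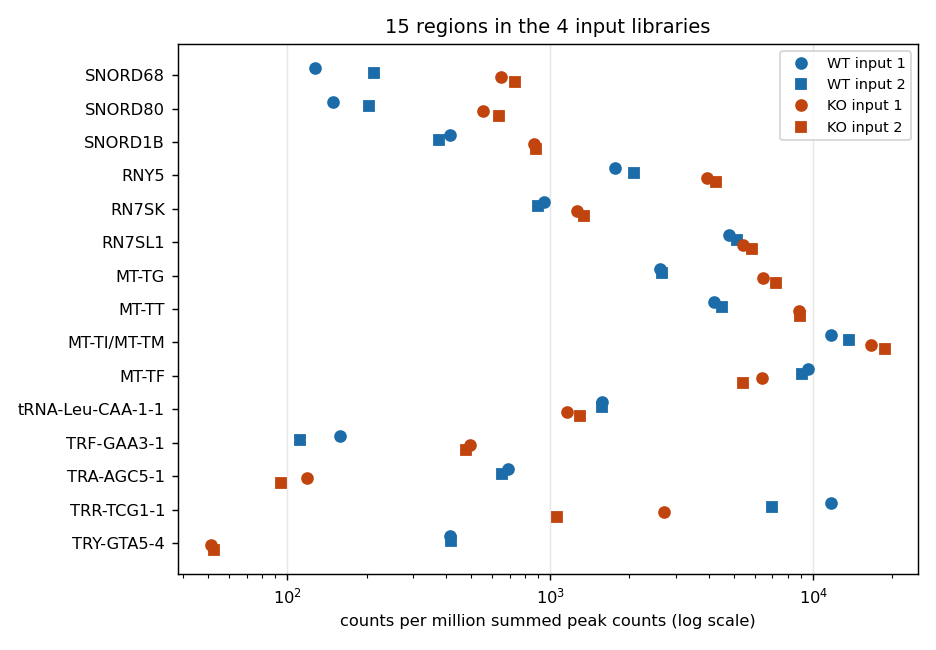
CPM (log axis) of 15 regions in each of the 4 input libraries, with the colours and symbols of the class plot. RNY5, at 1762 and 2081 CPM in WT, is higher in KO at 3949 and 4255 CPM, while TRY-GTA5-4, at 414 and 418 CPM in WT, is lower at 51.4 and 52.5 CPM.

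Mitochondrial tRNAs are cut from long transcripts of both strands of the mitochondrial genome. Of 12 tested regions, 7 rose, 1 fell and 4 were not called, beside 23.7% of all regions called higher and 14.7% lower. MT-TG (glycine) had 2622 and 2662 CPM in WT and 6422 and 7242 CPM in KO, a log2 ratio of 1.37 ± 0.10 (adjusted p = 0.0111). MT-TT (threonine) had 4192, 4509, 8854 and 8899 CPM, and the joined region of MT-TH, MT-TS2 and MT-TL2 had 8459, 8997, 16880 and 16790 CPM. In both, the KO values lay above the WT values, and the ratios were 1.03 ± 0.08 and 0.95 ± 0.07 (both adjusted p = 0.0111). MT-TP on the minus strand rose by 1.17 ± 0.11 (adjusted p = 0.0146), with peaks of 112, 125, 80 and 73 nt. DESeq2 called 5 regions higher and 1 lower, and 7 of the 8 calls kept an unadjusted p under 0.05 with each library left out in turn.

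MT-TF (phenylalanine), the first tRNA gene of the plus-strand transcript, went the other way, with 9574 and 9058 CPM in WT and 6391 and 5400 CPM in KO. It fell by 0.66 ± 0.11 on the log2 scale (adjusted p = 0.0219), with no overlap of the groups. Its peaks covered 42 and 41 nt in the WT inputs and 32 and 32 nt in the KO inputs. MT-TW (-0.03), MT-TA (0.63), MT-TD (-0.41) and MT-TS1 (-0.79) were not called, with adjusted p from 0.182 for MT-TA to 0.950 for MT-TW. By strand, 6 of 9 tested regions on the plus strand rose and 1 fell, counting the region that joins MT-RNR2 to MT-TL1, and 2 of 4 on the minus strand rose, again beside 23.7% of all regions called higher. A region at 8328 to 8347 in MT-TK (lysine) was listed in the KO inputs alone, at 725 and 806 CPM. So was a short region at 1614 to 1617 in MT-TV (valine), at 242 and 284 CPM. Both cover a part of the tRNA only.

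The known carriers of the ALKBH1 modification were looked at in the same fit. MT-TM shared a region with MT-TI (chromosome M, 4261 to 4445, plus strand), so the methionine and isoleucine tRNAs cannot be told apart there. The region had 11640 and 13660 CPM in WT and 16620 and 18720 CPM in KO, and rose by 0.48 ± 0.12 (adjusted p = 0.0415). That call was lost with RLE factors (adjusted p = 0.0699) and with DESeq2 (0.0575). Of the 4 tRNA-Leu-CAA references, tRNA-Leu-CAA-1-1 was the most abundant, with 1571, 1571, 1157 and 1299 CPM. Its groups did not overlap, but its log2 ratio of -0.35 ± 0.11 was not called (adjusted p = 0.0692, 0.0460 with TMM and 0.0387 with RLE factors). tRNA-Leu-CAA-2-1, 3-1 and 4-1 had ratios of -0.11 ± 0.20, 0.29 ± 0.20 and 0.05 ± 0.21, none called. The sum over the anticodon was 2515, 2683, 2226 and 2427 CPM (-0.16 ± 0.11, adjusted p = 0.279). Among the 5 gene loci of this family, 4 were tested and none was called by edgeR or DESeq2, with ratios from -0.47 at TRL-CAA4-1 to 0.46 at TRL-CAA1-1.

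Of 12 tested regions in the mitochondrial rRNAs MT-RNR1 and MT-RNR2, 4 rose and none fell, so that 33.3% were called beside 38.4% of all regions, and 11 had a ratio above 0. DESeq2 called 1 of them. The most abundant, at the junction of MT-RNR2 and MT-TL1 (chromosome M, 3104 to 3275, plus strand), had 18900, 20210, 28470 and 30580 CPM and rose by 0.59 ± 0.07 (adjusted p = 0.0153). The largest change was at 1807 to 1828 in MT-RNR2, which rose by 1.14 ± 0.26 (adjusted p = 0.0387, and 0.172 with DESeq2), with peaks of 12, 8, 12 and 21 nt. Of the 55 regions of the class, 21 had a peak in both KO inputs and in neither WT input and 4 had the reverse, beside 212 and 26 of all 1177 regions. Above 106 CPM it was 16 and 4, beside 100 and 26. A copy of mitochondrial DNA on chromosome 1 within ENSG00000230021 (629524 to 629572, minus strand) was among the largest rises, with 234, 133, 540 and 648 CPM (1.70 ± 0.33, adjusted p = 0.0307, and 0.0961 with DESeq2). Its peaks covered 49, 25, 13 and 26 nt. Its bases match mitochondrial DNA, so its reads may belong to either.

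In mature cytosolic tRNA, 33 of 113 tested regions fell and 9 rose, beside 14.7% of all regions called lower and 23.7% called higher. The falls included several amino acids. Of 17 arginine tRNA regions, 10 fell and none rose, with a median log2 ratio of -0.41. All 8 lysine regions had a ratio below 0, and 6 fell. All 6 proline regions were below 0 with a median of -1.01, and 4 fell. The most abundant to fall by more than 1 on the log2 scale, tRNA-Arg-TCG-1-1, had 18510 and 24300 CPM in WT and 6432 and 7530 CPM in KO (-1.62 ± 0.17, adjusted p = 0.0146). tRNA-Gly-GCC-1-1, with the highest mean CPM of the class, had 20530, 20220, 13810 and 12460 CPM (-0.63 ± 0.08, adjusted p = 0.0153). tRNA-Lys-CTT-11-1 had the largest fall, with 393, 255, 56.6 and 91.1 CPM in peaks of 34, 10, 13 and 12 nt (-2.09 ± 0.38, adjusted p = 0.0256, and 0.0653 with DESeq2). Its KO values were at 11 and 26 counts. DESeq2 called 19 regions lower and 3 higher, and RLE factors 38 and 7. By northern blot, a different measure from these scaled peak counts, the study saw no change in overall tRNA levels in the knockout.

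The tRNAs that rose were few. Of 10 valine regions, 4 rose and none fell, led in level by tRNA-Val-CAC-2-1 with 2887, 3254, 5214 and 5036 CPM (0.74 ± 0.10, adjusted p = 0.0153). The selenocysteine tRNA, tRNA-SeC-TCA-1-1, had 839, 745, 1856 and 1572 CPM and rose by 1.11 ± 0.14 (adjusted p = 0.0153). tRNA-Ser-AGA-1-1 had the largest rise, from 318 and 306 CPM to 869 and 764 CPM (1.38 ± 0.17, adjusted p = 0.0153, and 0.0829 with DESeq2), but its region covered bases 26 to 33 alone, whereas 4 of the 11 serine regions fell. Of a list of anticodons drawn from those the study examined (Gln-CTG, Glu-CTC, Gly-CCC, Met-CAT, Ser-CGA, Trp-CCA, Val-CAC), 19 regions were tested, and 3 rose, 1 fell and 15 were not called, beside 23.7% and 14.7% of all regions. Leu-CAG and initiator iMet-CAT, examined there too, were not on that list. Summed per anticodon, Leu-CAG fell (8735, 9181, 5810 and 6129 CPM, -0.59 ± 0.08, adjusted p = 0.0173), and iMet-CAT was not called (5360, 6039, 6489 and 6689 CPM, 0.21 ± 0.09, adjusted p = 0.134). Among the families with intron-bearing genes (Tyr-GTA, Leu-CAA, Arg-TCT, Ile-TAT), 4 of 11 mature regions fell and none rose. That lies beside 33 of all 113 mature tRNA regions and 14.7% of all regions called lower, and DESeq2 called 1 of the 11 lower. Isodecoders share sequence, so reads can be exchanged between references of 1 family.

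Peaks were also summed per anticodon. In that fit 35.2% of all units were called, 23.8% higher and 11.4% lower. Of the 45 anticodons with a peak in all libraries, 13 were lower and 3 higher in KO, and 27 had a ratio below 0. The largest falls were Pro-AGG (435, 357, 144 and 109 CPM, -1.65 ± 0.27, adjusted p = 0.0197), Pro-CGG (2484, 1989, 1105 and 883 CPM, -1.17 ± 0.19, adjusted p = 0.0206) and Arg-TCG (26080, 34850, 13860 and 16040 CPM, -1.03 ± 0.17, adjusted p = 0.0208). The largest ratios above 0 were SeC-TCA, Ser-AGA and Val-CAC. Ser-AGA (584, 306, 941 and 827 CPM) was not called (0.99 ± 0.36, adjusted p = 0.0856), whereas Val-CAC (7355, 7987, 11410 and 11500 CPM) rose by 0.58 ± 0.08 (adjusted p = 0.0173). The third anticodon that rose was Glu-TTC (2802, 3040, 3938 and 3968 CPM, 0.44 ± 0.09, adjusted p = 0.0342). With TMM or RLE factors 20 anticodons were lower and 2 higher. Without WT input replicate 1 no anticodon was called by edgeR, with 25 at an unadjusted p under 0.05, without WT input replicate 2 the calls were 3, and without KO input replicate 2 they were 10.

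**Figure D4:**
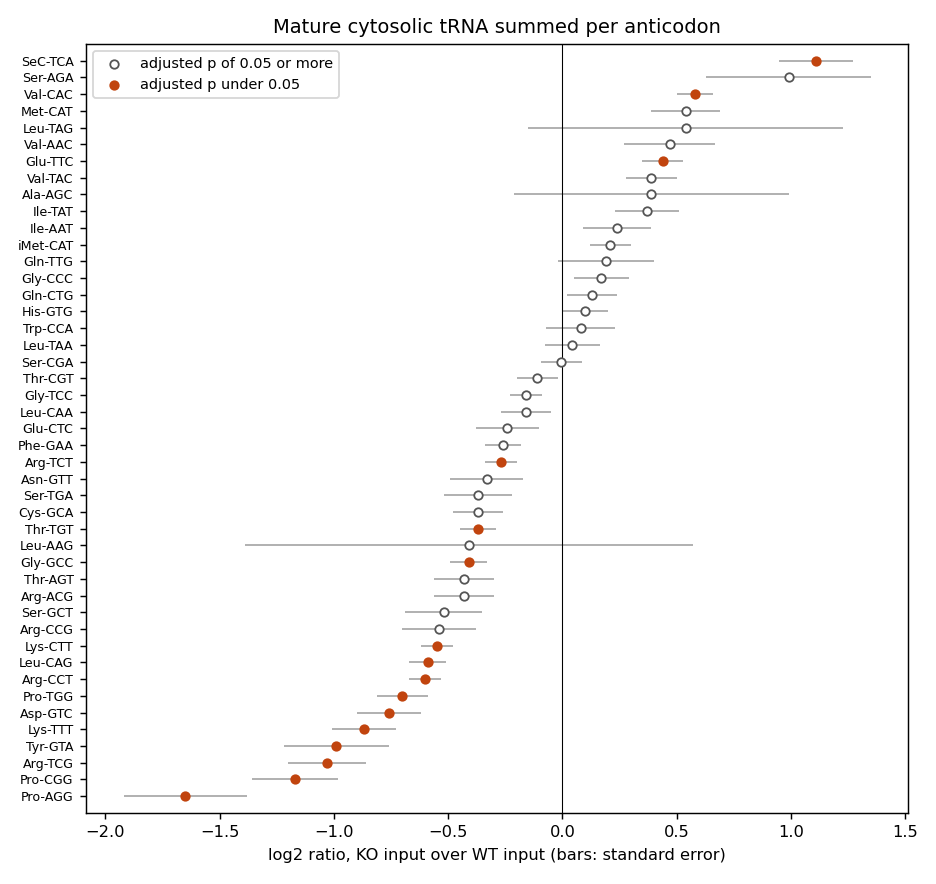
Log2 ratio of KO over WT input, with its standard error as bars, for 45 anticodons of mature cytosolic tRNA in order of the ratio, where filled points have an adjusted p under 0.05. Pro-AGG (-1.65), Pro-CGG (-1.17) and Arg-TCG (-1.03) lie at the lower end and SeC-TCA (1.11) at the upper end.

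The place where tRNA peaks began also differed. Peaks that started at base 1 to 5 of the mature tRNA held 57.2% and 58.6% of the tRNA counts of WT and 62.7% and 64.4% of those of KO. Peaks that started at base 21 to 40 held 14% and 12.2% in WT and 12.6% and 7.85% in KO, which overlapped. Of 47 tested regions that began at base 6 or later, 16 fell and 1 rose, with a median log2 ratio of -0.24. Of 66 that began at base 1 to 5, 17 fell and 8 rose, with a median of -0.14. These counts lie beside 33 and 9 of all 113 mature tRNA regions, and 14.7% and 23.7% of all regions.

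Among tested regions, those at nuclear tRNA gene loci fell more often than they rose. The 4 libraries had 168 such regions, 166 of them on the strand of the gene, and 115 reached 3 nt or more upstream of the gene, by a median of 7 nt. Of 72 tested regions, 15 fell and 3 rose, beside 14.7% and 23.7% of all regions, with a median log2 ratio of -0.68. In all 25% were called, beside 38.4% of all regions. Loci below the list minimum of a WT input could not be tested. Of the 168 regions, 14 had a peak in both KO inputs and in neither WT input, and none had the reverse. Of all 1177 regions, 212 and 26 did. Above 106 CPM, 3 loci were listed in both KO inputs alone, beside 100 of all regions. Covered lengths differed by more than 1.5 times between genotypes in 33 of the 72, and of the other 39 loci 11 fell and 2 rose. TRY-GTA5-4, printed above, had 414 and 418 CPM in WT and 51.4 and 52.5 CPM in KO. The KO values were at 10 and 15 counts, near the list minimum, and the log2 ratio of -2.98 ± 0.20 (adjusted p = 0.0111) was the lowest of all 409 regions. Its peaks covered 97 and 97 nt in the WT inputs and 74 and 74 nt in the KO inputs. TRY-GTA5-3, a related tyrosine gene, had 127, 194, 56.6 and 56.0 CPM and fell by 1.5 ± 0.31 (adjusted p = 0.0337). TRA-AGC5-1, an alanine gene, had 690, 653, 118 and 94.6 CPM (-2.66 ± 0.22, adjusted p = 0.0141), but its peaks covered 40 nt in both WT inputs and 9 nt in both KO inputs.

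Some of the abundant loci also differed between replicates. TRR-TCG1-1, with the highest mean CPM of the class, had 11690 and 6957 CPM in WT and 2699 and 1058 CPM in KO (-2.32 ± 0.56, adjusted p = 0.0420), so replicate 1 was the higher in both genotypes. TRR-CCT4-1 had 1284 and 398 CPM in WT and 139 and 105 CPM in KO (-2.79 ± 0.66, adjusted p = 0.0410). TRS-GCT3-1 (4925, 3468, 2165 and 893 CPM) was not called (-1.46 ± 0.49, adjusted p = 0.0784). In the other direction TRF-GAA3-1 rose, from 159 and 112 CPM to 494 and 476 CPM (1.83 ± 0.25, adjusted p = 0.0162), in peaks of 15 and 32 nt against 67 and 66 nt. Of 52 tested loci that reached 3 nt or more upstream, 11 fell and 3 rose, and of 20 that did not, 4 fell and none rose. These counts lie beside 15 and 3 of all 72 tested loci, and 14.7% and 23.7% of all regions. DESeq2 called 8 loci lower and none higher, and 8 of the 18 calls kept an unadjusted p under 0.05 with each library left out in turn.

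In 18S and 28S rRNA most of the regions were a few bases wide and most of the calls were rises. Of 24 tested 18S regions, 12 rose and 1 fell, and of 40 tested 28S regions, 20 rose and 2 fell, beside 23.7% and 14.7% of all regions, with medians of 0.54 and 0.49. Among those with like covered length in both genotypes, 10 of 20 rose and 1 fell in 18S, and 15 of 28 rose and none fell in 28S. The largest rise of the whole comparison was at bases 3768 to 3774 of mature 28S rRNA, printed above, with 308, 479, 2303 and 2753 CPM (2.68 ± 0.25, adjusted p = 0.0146). Its peaks covered 2 nt in both WT inputs and 6 and 7 nt in the KO inputs, so the counts were not over the same bases. Bases 60 to 72 of 28S had 584, 1071, 2550 and 2907 CPM in peaks of 2, 7, 11 and 13 nt (1.72 ± 0.31, adjusted p = 0.0263), and bases 2338 to 2386 had 6029, 6151, 15470 and 15860 CPM (1.36 ± 0.06, adjusted p = 0.0102). The largest 18S rise was at bases 1463 to 1464, with 499, 704, 1465 and 1453 CPM (1.28 ± 0.20, adjusted p = 0.0196).

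The abundant regions near the ends of the mature rRNAs moved little or fell. The first bases of 18S (12040, 10960, 13320 and 12410 CPM) were not called (0.16 ± 0.08, adjusted p = 0.185), and those of 28S (18560, 18080, 23130 and 21510 CPM) rose by 0.28 ± 0.07 (adjusted p = 0.0398), a call lost with TMM factors (0.107), RLE factors (0.155) and DESeq2 (0.313). Bases 1766 to 1853 of 18S, the most abundant region of that RNA, had 40010, 41150, 33710 and 32340 CPM and fell by 0.30 ± 0.06 (adjusted p = 0.0267). Bases 4920 to 5053 of 28S, the most abundant there, had 49000, 50000, 56720 and 53970 CPM (0.16 ± 0.05, adjusted p = 0.0783). The single 5.8S region, the largest peak of every library, had 107800, 99310, 84330 and 74700 CPM and fell by 0.38 ± 0.09 (adjusted p = 0.0376, 0.0501 with TMM factors). The 5S region, at 50950, 51380, 51380 and 49190 CPM, was not called (-0.03 ± 0.05, adjusted p = 0.720). The largest fall in 28S was at bases 3589 to 3604 (3311, 1989, 1321 and 1233 CPM in peaks of 16, 5, 2 and 2 nt, -1.05 ± 0.28, adjusted p = 0.0489). Among regions of 5 nt or less, 19 rose and none fell in a set of 34 that were tested, and among the wider ones 13 of 30 rose and 3 fell, beside the same shares of all regions. DESeq2 called 9 regions of the pair higher and 2 lower, and 25 of the 35 calls kept an unadjusted p under 0.05 with each library left out in turn.

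**Figure D5:**
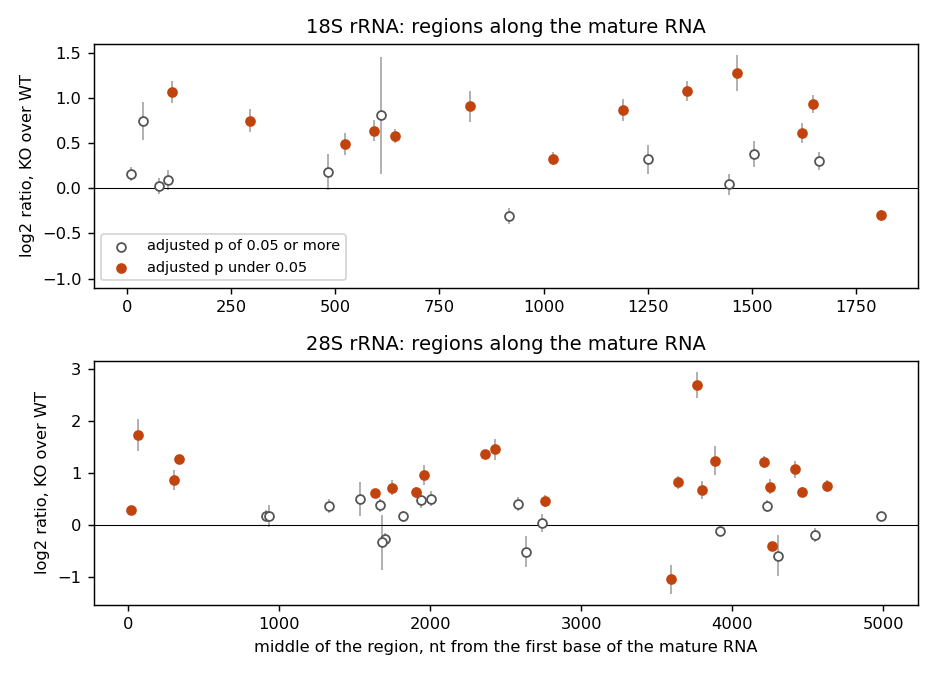
Log2 ratio of KO over WT input with its standard error against the middle of each region in nt from the first base of mature 18S rRNA (24 regions, top) and 28S rRNA (40 regions, bottom), where filled points have an adjusted p under 0.05. Rises are spread along both RNAs, with the highest at 2.68 near base 3768 of 28S.

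Outside these classes few regions could be tested, and 26 of them lay at runs of A. Regions of the genome next to runs of A held 3.79% and 2.67% of the WT inputs and 0.394% and 1.59% of the KO inputs, so the KO replicates differed by more than the WT replicates did. These 26 had a ratio below 0 with a median of -1.64. By edgeR 2 were called (7.69%, beside 38.4% of all regions). By DESeq2 9 were called lower, beside 41 of all 409 regions. One of the 26, on chromosome 10 (62304519 to 62304531, plus strand), had 435, 184, 56.6 and 73.6 CPM (-2.22 ± 0.51, adjusted p = 0.0391, and 0.0727 with DESeq2). Its KO values were at 11 and 21 counts. The NUTF2 intron site printed above, the most abundant in a protein-coding gene, had 14090, 16390, 9496 and 9218 CPM (-0.70 ± 0.10, adjusted p = 0.0165), and it carries adaptor letters. Its origin in NUTF2 RNA was not tested. Without the regions at runs of A or adaptor letters, 175 of 382 regions were called, 111 higher and 64 lower.

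Genes coding for protein held 2.66%, 2.90%, 1.87% and 2.34% of the counts, of which 1.41%, 1.66%, 0.950% and 0.940% lay at adaptor letters. A site of 2 nt in an intron of PARD3, a polarity gene, had 202, 255, 555 and 585 CPM and rose by 1.32 ± 0.21 (adjusted p = 0.0203, and 0.178 with DESeq2). An intron site of MRPS31P5, annotated as a long noncoding RNA gene, had 212, 265, 746 and 736 CPM and rose by 1.63 ± 0.20 (adjusted p = 0.0153, and 0.054 with DESeq2). NR2F2-AS1, the most abundant of the long noncoding RNA genes, had 3492, 3835, 4005 and 3313 CPM, and its groups overlapped (adjusted p = 0.987). Of the listed ribosomal protein and elongation factor genes and the mitochondrial mRNAs, no region had a peak in all 4 libraries, and a single histone gene region was listed, in KO input replicate 2.

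Regions seen in 1 genotype were counted last, as a description. A region was counted when both libraries of a genotype listed it, neither library of the other did, and its mean CPM was above the highest list minimum, 106 CPM. This gave 100 regions for the KO inputs and 26 for the WT inputs. The KO set held 24 SNORD and 8 SNORA regions, 19 named for mitochondrial genes and 16 in 18S or 28S rRNA, and the WT set held no SNORD or SNORA region, 4 named for mitochondrial genes and 17 in 18S or 28S rRNA. All 3 members of the SNORD45 family with such a region were in the KO set, with SNORD45A at 334 and 396 CPM, SNORD45C at 273 and 333 CPM and SNORD45B at 134 and 102 CPM. The highest of the KO set were at bases 1298 to 1300 of 18S (2057 and 1846 CPM), 1928 to 1931 of 28S (1712 and 1713 CPM), 472 to 475 of 18S (1013 and 970 CPM) and 582 to 583 of 18S (869 and 844 CPM).

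The highest of the WT set were also in rRNA. Bases 1567 to 1579 of 18S had 722 and 4978 CPM, far apart between the replicates, bases 4864 to 4866 of 28S had 1645 and 1418 CPM, bases 1607 to 1608 of 18S had 1305 and 1387 CPM, and bases 1722 to 1724 of 28S had 1019 and 1112 CPM. At such levels a missing peak in the deeper KO libraries, whose list minimum was 51.4 and 35.02 CPM, means that the bases fell below the minimum or were not clustered there, and these were not told apart.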

How the data were processed

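The 4 input libraries (2 per genotype) were analysed from peak lists the authors deposited, in which each value is the cDNA count of a peak, unnormalized. Per the study's methods, reads went through the iCount consensus pipeline: unique molecular identifiers removed PCR duplicates, STAR mapped reads to tRNA and rRNA and then uniquely to GRCh38, and Paraclu called peaks per library at default settings. Near-identical loci can therefore lose or exchange reads. Of 26 genome reference names in the lists, 25 were in the GRCh38 FASTA used for sequences.

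Peaks overlapping by 1 nt or more were merged and named from GENCODE release 44 and RefSeq (patch 14). Counts were scaled to the summed counts of each library. For regions with a peak in all 4 libraries, edgeR 4.0.16 (R 4.3.3) gave the p-values (quasi-likelihood test, two-sided, across all tested regions at once, no further scaling factor), and the standard error was the log2 ratio divided by the square root of F. DESeq2 1.42.0, other scalings, filters and merging, set values for unlisted regions, a replicate factor and leaving out libraries were alternatives. The study calls the replicates biological. Members, gene lists and the rule for named regions (largest changes, most abundant region and largest changes per class, the modification's known carriers, leading anticodons, and 4 regions per genotype listed in it alone) were chosen with earlier results of these data known; the host gene, width and covered length groups were chosen after the values were seen. For other genome regions, the window from 5 nt before to 30 nt after was scanned for runs of 15 A, for 9 adaptor letters and for 20 nt of mitochondrial DNA. Python 3.11.15, numpy 2.4.6, pandas 2.3.3 and matplotlib 3.10.9 were used. The depth behind a value is its summed peak count, not the reads of the library.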

Additional observations from a re-analysis of the deposited data

How the results depend on the processing

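The count of called regions (157 of 409) was 147 with TMM and 148 with RLE factors, 62 with DESeq2, 81 with DESeq2 on the summed counts (chosen after seeing the data, 42 higher and 39 lower), 256 of 1177 with unlisted values set to 9 (103 higher, 153 lower), 144 of 1177 with them set to 0 and 73 of 186 in the fit of all 8 libraries (35 higher, 38 lower); leaving out a library gave 0 to 90. The cause was not tested, except that setting unlisted values and requiring 8 libraries change which regions are tested. A value of 9 is also worth more CPM in the WT inputs, whose summed counts are smaller. A region unlisted in WT and with few counts in KO can therefore come out lower in KO by that setting alone. Called anticodons (16) ranged from 0 to 11 with a library left out. KO minus WT shares, in percentage points, went from -6.81 to -8.47 for cytosolic tRNA, from 3.96 to 8.09 for mitochondrial RNA and from 2.96 to 5.86 for small noncoding RNA when rRNA was left out of the denominator, and with a library left out they ranged from -7.82 to -5.80, 3.54 to 4.38 and 2.49 to 3.44; those of cytosolic rRNA ranged from 2.27 to 5.03 and of nuclear tRNA gene loci from -2.90 to -1.24. Regions listed in KO inputs alone (100) were 212 without a CPM minimum, 37 at 2 times the level and 105 to 130 with a library left out; those in WT inputs alone (26) were 17 at 2 times the level and 31 to 68 with a library left out. The replicate block gave 162 calls of regions, 137 of them among the 157, and 19 of anticodons. The deviations of replicates correlated at 0.321 across regions, but the numbers are not labelled as a shared batch and there are only 2 pairs, so the samples share only a number. Of the 34 named regions, the 27 called kept their sign wherever tested, and 3 of the 7 not called changed sign (NR2F2-AS1 from -0.15 to 0.13, tRNA-Leu-CAA-2-1 from -0.23 to 0.0083, tRNA-Leu-CAA-4-1 from -0.11 to 0.18), while DESeq2 lost the call of 11 and leaving out WT input replicate 1 that of 27. With a lone library in an arm, it was assumed to vary like the other group. Depth limits the low regions most, since a WT region under 10 counts has no value.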
